A study of Mus musculus with 12 samples.

Results

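The expression of 10 genes of the lipid droplet was followed across 12 mouse lung tumors in 4 groups. The genes were *Plin2*, *Plin3*, *Plin4*, *Plin5* and *Cidec*, whose proteins sit on the droplet surface, *Dgat1* and *Dgat2*, which make triglyceride, *Pnpla2*, which breaks it down, and *G0s2* and *Hilpda*, which code for inhibitors of the *Pnpla2* product. They were picked by gene symbol in the deposited count table, which lists 39017 genes. All 10 passed the filter on low counts, which kept 16527 genes for testing.

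A lipid droplet stores neutral lipid, mostly triglyceride, under a single phospholipid layer coated with proteins of the perilipin family. Diacylglycerol acyltransferases add the final fatty acid to triglyceride, and adipose triglyceride lipase, encoded by *Pnpla2*, starts its breakdown and frees fatty acids that can be oxidised, built into membranes or surfactant, or bound by nuclear receptors of the PPAR family. PPARα is such a receptor and drives genes of fatty acid use, *Plin2* among its known targets. *Hilpda* is a known target of the hypoxia-inducible factors, which does not set it apart from PPARα. Which of the genes followed here are PPAR targets was not examined, and *Plin2* need not be the only one.

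KP mice are an engineered strain in which Cre starts lung adenocarcinomas. KPG1 mice are KP mice whose *Slc2a1*, which codes for the glucose transporter Glut1, is floxed as well. All mice received 6000 lentiviral units of 1 vector, in which the PGK promoter drives Cre and a doxycycline-responsive promoter drives PPARαΔ13, a dominant negative mouse PPARα, and its induction needed the rtTA protein made from the CCSP promoter, which is best known for its activity in club cells. Tumors were collected 26 weeks after initiation. For 15 days, doxycycline at 625 mg/kg was in the food of the mice with KP-PPARαΔ13 and KPG1-PPARαΔ13 tumors, while the KP and KPG1 tumors grew on regular food, so doxycycline and the transgene cannot be told apart. Each group held 3 tumors, from 2 KP, 3 KP-PPARαΔ13, 2 KPG1 and 2 KPG1-PPARαΔ13 mice, where a number in the labels is read as the animal. The KP tumors were all from females and the KPG1 tumors all from males, so sex and genotype cannot be told apart on the regular diet. Females gave 1 of the KP-PPARαΔ13 and 2 of the KPG1-PPARαΔ13 tumors, and males the others. The labels give KP mice as wild-type for *Slc2a1*, and the methods of the study allow heterozygotes among controls.

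RNA came from the cells left after removal of CD45-positive immune cells, with 25263794 to 32654223 reads counted on genes per tumor. Levels are given as CPM, the counts scaled to library size after TMM normalization, and, between genes, as TPM, which also corrects for gene length. *Ppara*, whose count takes in the mouse transgene, was at 64.6 and 246 CPM in KP-PPARαΔ13 replicates 2 and 3 and at 2.71 CPM in replicate 1, below every KP tumor (9.54 to 15.7 CPM), so replicate 1 went against its label. In KPG1-PPARαΔ13 it was at 8.90 to 19.2 CPM, overlapping KPG1 (7.24 to 15.3 CPM). *Slc2a1* counts did not separate the genotypes on the regular diet (30.2 to 64.0 CPM in KPG1 and 35.3 to 57.7 CPM in KP). KPG1-PPARαΔ13 tumors (23.7 to 54.5 CPM) overlapped both of these groups. Every KP-PPARαΔ13 tumor (108 to 153 CPM) lay above all tumors of the other groups, KP included. The doxycycline groups thus differed through a higher level in KP-PPARαΔ13. How much of the transcript a deleted allele still makes is not given in the sources used here.

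*Hilpda* and *G0s2* had the smallest p with PPARαΔ13 averaged over both genotypes, and *Plin2* is a known PPAR target. This choice does not class *Hilpda* or *G0s2* as genes outside PPAR control. The sequences before the start sites of *Hilpda*, *G0s2* and *Plin2* are shown for these reasons. They are the 250 bases upstream of the RefSeq start on GRCm38.p6, read 5′ to 3′ on the gene's strand, at chr6:29272238-29272487 (plus strand) for *Hilpda*, chr1:193273189-193273438 (minus strand) for *G0s2* and chr4:86670060-86670309 (minus strand) for *Plin2*. Capitals mark AGGTCA, a half-site bound by many nuclear receptors, or ACGTG or GCGTG, the core bound by hypoxia-inducible factors, each searched on both strands.
Hilpda: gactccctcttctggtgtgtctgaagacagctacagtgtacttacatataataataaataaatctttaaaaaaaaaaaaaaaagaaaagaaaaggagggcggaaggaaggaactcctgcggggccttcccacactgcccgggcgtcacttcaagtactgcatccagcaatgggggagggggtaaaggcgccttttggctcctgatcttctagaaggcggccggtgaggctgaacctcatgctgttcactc
G0s2: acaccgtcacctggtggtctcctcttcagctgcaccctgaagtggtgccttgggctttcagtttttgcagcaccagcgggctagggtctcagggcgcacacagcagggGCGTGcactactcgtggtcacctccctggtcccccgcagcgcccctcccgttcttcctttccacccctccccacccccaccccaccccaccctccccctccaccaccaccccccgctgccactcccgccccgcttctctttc
Plin2: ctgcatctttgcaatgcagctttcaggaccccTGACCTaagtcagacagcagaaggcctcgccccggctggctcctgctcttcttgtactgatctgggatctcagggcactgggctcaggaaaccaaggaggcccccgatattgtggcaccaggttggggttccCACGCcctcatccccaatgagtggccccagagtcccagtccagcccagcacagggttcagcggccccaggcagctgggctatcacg
The RefSeq table held 8 of the 10 genes, without *Dgat1* and *Dgat2*. AGGTCA occurred upstream of 2 of the 8 (*Plin2* and *Plin5*), and in 14.0% of the 32851 windows of the same length in the table. No window of the 8 genes held the DR1 motif, in which AGG-N-CA half-sites lie 1 base apart in the same direction, the form used by PPAR with its partner RXR, which occurred in 0.338% of all windows. GCGTG occurred upstream of 5 of the 8 genes (28.2% of all windows) and ACGTG upstream of 1 (16.6% of all windows). The gene counts for each motif take a match in any window of a gene, whereas the percentages are per window. They are thus not directly comparable. *Hilpda*, *Cidec* and *Plin5* had 2 windows each, and the GCGTG matches of *Hilpda* and *Cidec* lay in only 1 of them. ACGTG is also part of the E-box CACGTG, which none of the 8 held (6.02% of all windows). The upstream window of the main *Hilpda* start held neither core. A second RefSeq start of *Hilpda* lies inside the gene, and its window held 3 core matches, shown here with 10 bases on each side, at chr6:29272505-29272529, chr6:29272573-29272597 and chr6:29272608-29272632.
Hilpda core 1: accgcgagccGCGTGctttccgtga
Hilpda core 2: tggccagcggACGTGccccagggcg
Hilpda core 3: ggttcggtacGCGTGcgcagtctcc
These matches describe letters in the reference genome, and binding was not measured.

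The levels per length spanned more than 2 orders of magnitude. *Plin2* stood highest with a mean of 136 TPM over the 12 tumors (95.6 to 184 TPM), at the 92.2 percentile of the genes tested, and *Plin3* followed with 119 TPM (89.7 to 167 TPM). *Pnpla2* had a mean of 90.3 TPM (55.5 to 142 TPM), *Hilpda* 74.9 TPM (31.3 to 151 TPM) and *Dgat1* 42.3 TPM (27.9 to 61.7 TPM). In these 5 genes the tumor ranges of neighbours in the order overlapped. *G0s2* had a mean of 21.1 TPM (3.01 to 62.6 TPM) and *Dgat2* 13.2 TPM (2.80 to 29.4 TPM), again with overlapping ranges. *Cidec* (3.98 TPM), *Plin5* (1.88 TPM) and *Plin4* (0.645 TPM) closed the order, *Plin4* at the 6.90 percentile. The broadly expressed coat genes *Plin2* and *Plin3* thus stood above *Plin4*, *Plin5* and *Cidec*, which are best known from fat, muscle and other tissues that store or burn much lipid, in every tumor.

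**Figure D1:**
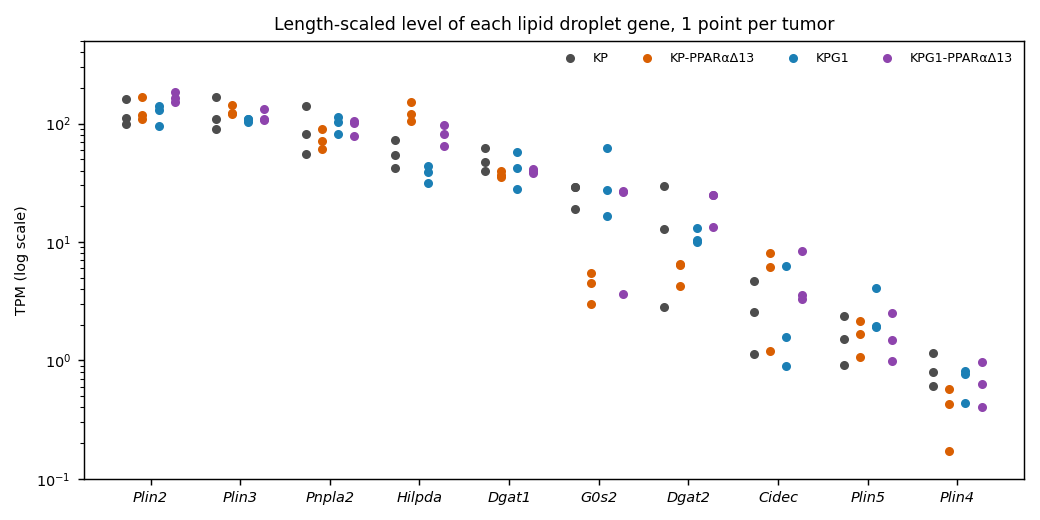
The level of each of the 10 genes is plotted in TPM on a log scale, with 1 point per tumor and colors for the 4 groups. The genes run from Plin2 (mean 136 TPM) on the left to Plin4 (0.645 TPM) on the right, and the points of Hilpda and G0s2 split by group more than those of Plin2 or Plin3.

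Spread between tumors of a group followed a different order. The median coefficient of variation over the 4 groups was 10.9% for *Dgat1*, 12.9% for *Plin3*, 15.5% for *Plin2*, 18.1% for *Hilpda* and 22.2% for *Pnpla2*. It was 28.9% for *Dgat2*, 32.1% for *Plin4*, 39.9% for *Plin5*, 49.1% for *G0s2* and 67.9% for *Cidec*. The last genes had few reads in some tumors, as low as 8 for *Plin4*, 12 for *Cidec*, 16 for *Plin5* and 23 for *G0s2*, so that counting error adds to their spread. Over all 12 tumors the highest value was 1.82 times the lowest for *Dgat1* and 22.0 times the lowest for *G0s2*.

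Among the coat genes, *Plin2* codes for perilipin 2, the main coat protein of droplets in cells other than fat cells. It was at 113, 89.5 and 168 CPM in the 3 KP tumors, at 163, 117 and 119 CPM in KP-PPARαΔ13, at 143, 114 and 137 CPM in KPG1 and at 180, 148 and 167 CPM in KPG1-PPARαΔ13. Each KPG1-PPARαΔ13 tumor lay above each KPG1 tumor, by little, and the other groups overlapped. *Plin3* codes for a perilipin that moves between cytosol and new droplets, and was at 183, 86.8 and 125 CPM in KP, at 152, 128 and 144 CPM in KP-PPARαΔ13, at 113, 139 and 124 CPM in KPG1 and at 114, 113 and 146 CPM in KPG1-PPARαΔ13. All groups overlapped for *Plin3*.

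*Plin4* and *Plin5* lie next to each other on the minus strand of chromosome 17 (GENCODE M21, mm10), with 1797 bases between them, and *Plin3* lies another 159879 bases on. *Plin4*, a perilipin of fat and muscle, was at 1.34, 1.70 and 1.04 CPM in KP and at 0.274, 0.936 and 0.770 CPM in KP-PPARαΔ13, all 3 below the KP tumors. It was at 1.36, 0.861 and 1.32 CPM in KPG1 and at 1.02, 1.54 and 0.678 CPM in KPG1-PPARαΔ13, which overlapped. The annotated end of *Plin4* shares 17 of its 9213 bases with *Hdgfl2* on the other strand. *Plin5*, which ties droplets to mitochondria, ranged from 0.548 to 2.44 CPM with all groups overlapping, and its highest tumor was KPG1 replicate 1. *Cidec*, which fuses droplets into larger ones, ranged from 0.480 to 4.37 CPM, with a tumor under 1 CPM and a tumor over 2 CPM in each of the KP, KP-PPARαΔ13 and KPG1 groups.

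Of the enzymes that make triglyceride, *Dgat1*, at the endoplasmic reticulum, was at 42.1, 48.1 and 36.1 CPM in KP and lower in each KP-PPARαΔ13 tumor, at 33.9, 30.4 and 35.2 CPM. It was at 37.3, 29.0 and 52.9 CPM in KPG1 and at 33.9, 32.0 and 36.4 CPM in KPG1-PPARαΔ13. *Dgat1* thus lay in a narrow band in both doxycycline groups and spread more widely on the regular diet. *Dgat2*, which can also act at the droplet itself and is unrelated to *Dgat1* in sequence family, was at 2.50, 23.2 and 11.8 CPM in KP, at 5.62, 3.68 and 6.16 CPM in KP-PPARαΔ13, at 9.32, 10.4 and 12.1 CPM in KPG1 and at 21.3, 11.5 and 22.3 CPM in KPG1-PPARαΔ13. The lowest and the highest *Dgat2* values of the series, 2.50 and 23.2 CPM, came from KP replicates 1 and 2, which carry the same mouse number.

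*Pnpla2*, the lipase gene, was at 48.5, 109 and 73.4 CPM in KP, at 59.5, 51.9 and 85.1 CPM in KP-PPARαΔ13, at 99.0, 105 and 73.8 CPM in KPG1 and at 66.3, 84.2 and 92.6 CPM in KPG1-PPARαΔ13, with all groups overlapping. Its inhibitor gene *G0s2* was at 7.29, 6.46 and 4.91 CPM in KP and at 1.10, 0.742 and 1.47 CPM in KP-PPARαΔ13. It was at 6.96, 4.89 and 16.4 CPM in KPG1 and at 6.45, 6.44 and 0.923 CPM in KPG1-PPARαΔ13. All 3 KP-PPARαΔ13 tumors were thus below every KP tumor, while of the KPG1-PPARαΔ13 tumors only replicate 3 was below the KPG1 tumors. KPG1-PPARαΔ13 replicates 1 and 3 carry the same mouse number and differed 6.98-fold in *G0s2*. The 1057 bases of *G0s2* lie within *Lamb3* on the opposite strand, and 0 of them fall in a *Lamb3* exon. *Lamb3*, a laminin gene, was at 173 to 1161 CPM in KP and 273 to 649 CPM in KP-PPARαΔ13, which overlapped, and the strand setting of the counting is not given in the sources used here.

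*Hilpda* codes for a small droplet protein that inhibits the same lipase. It was at 17.4, 20.4 and 14.0 CPM in KP and at 36.8, 47.0 and 35.6 CPM in KP-PPARαΔ13. It was at 14.0, 14.5 and 10.3 CPM in KPG1 and at 29.7, 19.5 and 25.9 CPM in KPG1-PPARαΔ13. In both genotypes every doxycycline tumor lay above every regular diet tumor. As means ± SD (n = 3), the levels were 17.3 ± 3.21 CPM in KP, 39.8 ± 6.26 CPM in KP-PPARαΔ13, 12.9 ± 2.27 CPM in KPG1 and 25.0 ± 5.19 CPM in KPG1-PPARαΔ13. Within females, the KP-PPARαΔ13 tumor was at 47.0 CPM against 14.0 to 20.4 CPM in KP, and within males, the KPG1-PPARαΔ13 tumor was at 19.5 CPM against 10.3 to 14.5 CPM in KPG1. In these bulk samples, fewer cells of a type and less RNA per cell cannot be told apart.

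**Figure D2:**
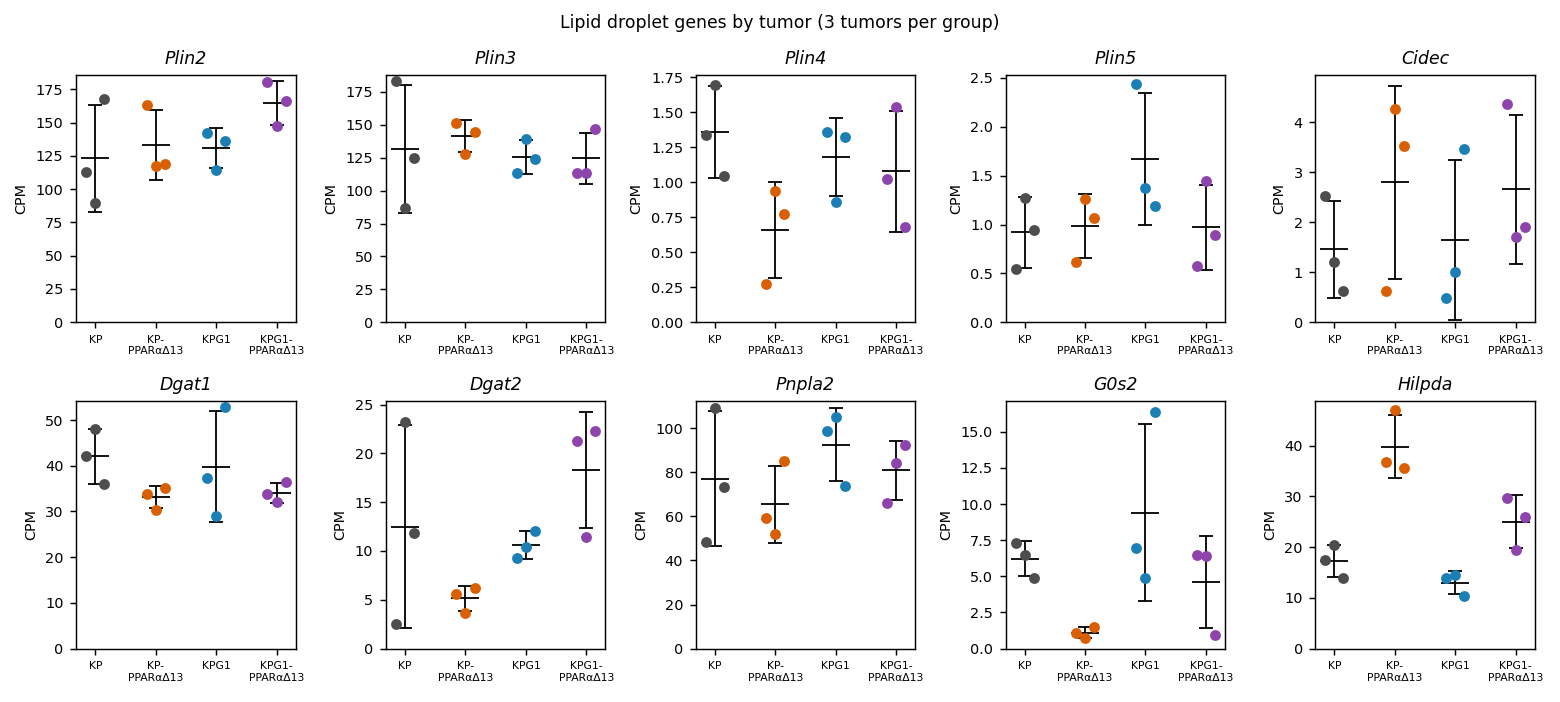
The level of each gene in CPM (linear axis from 0) is plotted for the 3 tumors of each group, with 1 point per tumor and bars for the mean and SD. The KP-PPARαΔ13 points lie above the KP points for Hilpda (35.6 to 47.0 against 14.0 to 20.4 CPM) and below them for G0s2 (0.742 to 1.47 against 4.91 to 7.29 CPM).

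Whether PPARαΔ13 with doxycycline went with a change of these genes in tumors labelled wild-type for *Slc2a1* was asked by setting KP-PPARαΔ13 against KP. *Hilpda* was 2.31-fold higher and *G0s2* at 0.178 times its KP level, but neither passed the adjusted threshold of edgeR's quasi-likelihood test. The log2 fold change was 1.21 ± 0.24 (SE) for *Hilpda* (unadjusted p = 0.000386, edgeR adjusted p = 0.256) and -2.49 ± 0.69 for *G0s2* (unadjusted p = 0.00379, edgeR adjusted p = 0.305). None of the 10 genes was called by edgeR, against 0.00605% of all genes tested, and 2 had an unadjusted p under 0.05, against 11.4% of all genes. DESeq2 called both, at an adjusted p of 0.00102 for *Hilpda* and 0.0132 for *G0s2*, against 1.5% of the genes it was run on. limma voom called 0 of the 10 in each of the 7 comparisons, where it called no more than 8 of all genes in any. Groups did not overlap for 1 gene that was higher (*Hilpda*), against 6.55% of all genes, and for 3 that were lower (*G0s2*, *Dgat1* and *Plin4*), against 6.70%. The median log2 fold change of the 10 was -0.07, beside -0.01 over all genes tested.

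For the other members in that comparison, the log2 fold changes and their 95% intervals show what these samples leave possible. *Plin2* differed by 0.11 (-0.41 to 0.63), *Plin3* by 0.10 (-0.43 to 0.64), *Plin4* by -1.04 (-2.16 to 0.09) and *Plin5* by 0.09 (-1.03 to 1.22). Changes of 2-fold in either direction are thus outside the intervals for *Plin2* and *Plin3* and within that for *Plin5*, and for *Plin4* a 2-fold lower but not a 2-fold higher level is within it. *Cidec* differed by 0.94 (-0.92 to 2.80), *Dgat1* by -0.34 (-0.84 to 0.15), *Dgat2* by -1.28 (-2.59 to 0.03) and *Pnpla2* by -0.24 (-0.89 to 0.41). The value for *Dgat2* rested on KP replicate 2, without which it was -0.48, and that for *Cidec* ranged from 0.50 without KP-PPARαΔ13 replicate 2 to 1.60 without KP replicate 1. Without KP-PPARαΔ13 replicate 1, the tumor in which *Ppara* was low, the log2 fold changes were 1.26 for *Hilpda* and -2.49 for *G0s2*, with edgeR adjusted p of 0.488 and 0.508, and *Hilpda* averaged over both genotypes was at 1.10 (0.205). The *Hilpda* value of that tumor, 36.8 CPM, lay between those of the other 2.

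The same question in tumors with floxed *Slc2a1* was put to KPG1-PPARαΔ13 against KPG1. *Hilpda* was 1.93-fold higher, with a log2 fold change of 0.95 ± 0.24 (unadjusted p = 0.00225, edgeR adjusted p = 0.420). *G0s2* differed by -1.03 (95% interval -2.46 to 0.39), and without KPG1 replicate 3, its highest tumor, by -0.39. With sex as a covariate, *Hilpda* was at 0.64 and *G0s2* at -0.55 (edgeR adjusted p = 0.999 for both). None of the 10 genes was called by edgeR, against 0.00605% of all genes, and *Hilpda* alone had an unadjusted p under 0.05, against 10.8%. DESeq2 called *Hilpda* (adjusted p = 0.0409), against 0.692% of genes. Groups did not overlap for 2 genes that were higher (*Hilpda* and *Plin2*), against 11.2% of all genes, and for none that were lower, against 9.41%. *Plin2* differed by 0.33 (-0.19 to 0.85), *Plin3* by -0.02 (-0.55 to 0.52), *Plin4* by -0.13 (-1.24 to 0.98) and *Plin5* by -0.78 (-1.90 to 0.35). *Cidec* differed by 0.68 (-1.17 to 2.53), *Dgat1* by -0.22 (-0.72 to 0.27), *Dgat2* by 0.79 (-0.50 to 2.08) and *Pnpla2* by -0.19 (-0.84 to 0.46). The median of the 10 was -0.07, beside 0.02 over all genes.

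The tumors labelled PPARαΔ13 were next averaged over both genotypes, although *Ppara* lay above every regular diet tumor of its genotype by more than 2-fold in only 2 of these 6. In them *Hilpda* was 2.11-fold higher, with a log2 fold change of 1.08 ± 0.17, and was higher in 6 of 6 tumors than any regular diet tumor of the same genotype (unadjusted p = 5.12e-05, edgeR adjusted p = 0.1002). *G0s2* was at 0.295 times its level (log2 fold change -1.76 ± 0.47, edgeR adjusted p = 0.290). edgeR called 0 of the 10 genes (0.0182% of all genes), 2 had an unadjusted p under 0.05 (10.1% of all genes), DESeq2 called the same 2, *Hilpda* at 6.31e-06 and *G0s2* at 0.0139 (1.13% of genes). *Hilpda* was also the 1 member whose groups did not overlap within both genotypes in the same direction, higher against 0.635% of all genes, with 0 members lower against 0.405%. The difference of the PPARαΔ13 effect between KPG1 and KP was tested directly. It was -0.26 (95% interval -1.002 to 0.49) for *Hilpda* and 1.46 (-0.56 to 3.48) for *G0s2*. With sex as a covariate these were -0.86 and 2.51, neither called. For *Dgat2*, lower with PPARαΔ13 in KP and higher in KPG1, it was 2.07 (0.23 to 3.90), with an edgeR adjusted p of 0.395, and 1.26 without KP replicate 2. None of the 10 was called for this difference by edgeR (0.0% of all genes) or DESeq2 (1.10%), and 1 had an unadjusted p under 0.05 (11.8% of all genes).

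**Figure D3:**
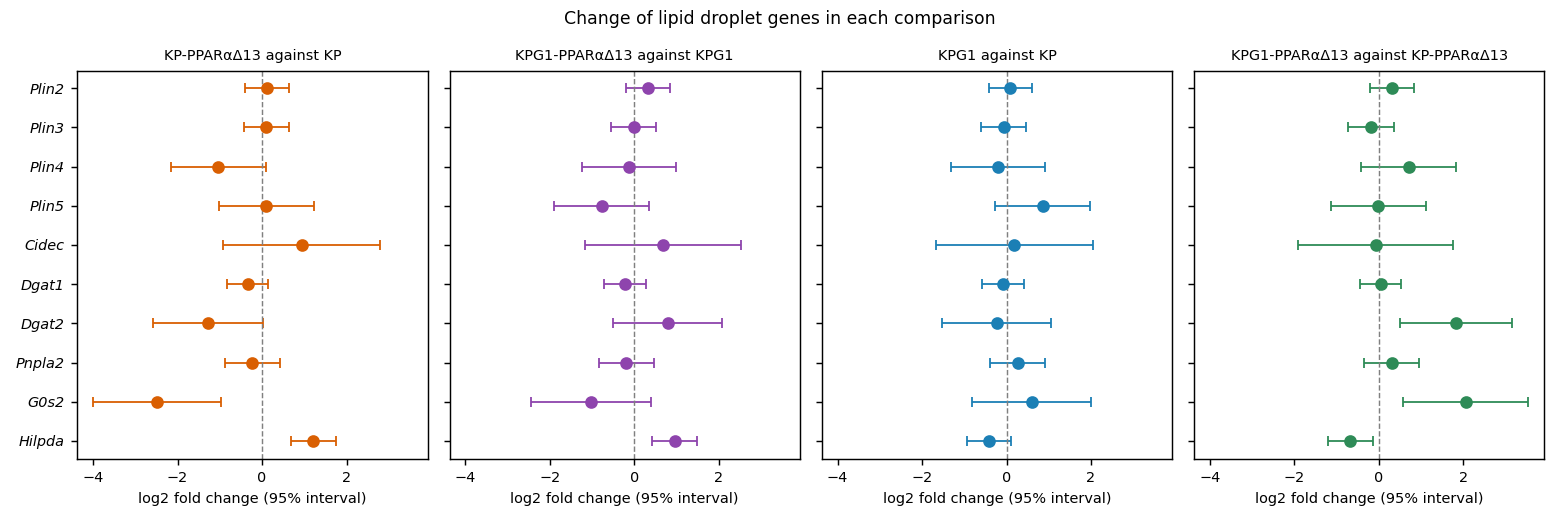
Points show the log2 fold change of each gene in the 4 comparisons, and bars the 95% interval of edgeR. The intervals lie off 0 for Hilpda and G0s2 in KP-PPARαΔ13 against KP, for Hilpda in KPG1-PPARαΔ13 against KPG1, for none of the genes in KPG1 against KP, and for Hilpda, G0s2 and Dgat2 in KPG1-PPARαΔ13 against KP-PPARαΔ13.

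Whether floxed *Slc2a1* went with a difference of these genes on the regular diet was addressed by KPG1 against KP, groups whose *Slc2a1* counts overlapped. The levels of all 10 genes overlapped between these groups (0 members against 9.95% of all genes), none was called by edgeR (0.0363% of all genes) or DESeq2 (0.225%), and none had an unadjusted p under 0.05 (6.23%). *Hilpda* differed by -0.41 (95% interval -0.94 to 0.11), *G0s2* by 0.60 (-0.82 to 2.01), *Dgat2* by -0.24 (-1.52 to 1.05) and *Plin5* by 0.85 (-0.27 to 1.98). The coat genes *Plin2*, *Plin3* and *Plin4* differed by 0.09 (-0.43 to 0.61), -0.06 (-0.60 to 0.47) and -0.20 (-1.31 to 0.90). *Cidec* differed by 0.18 (-1.67 to 2.04), *Dgat1* by -0.08 (-0.58 to 0.41) and *Pnpla2* by 0.27 (-0.39 to 0.92).

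With doxycycline, *Hilpda* was at 0.628 times its KP-PPARαΔ13 level in KPG1-PPARαΔ13 (log2 fold change -0.67 ± 0.24, unadjusted p = 0.0172, edgeR adjusted p = 0.484), and the groups did not overlap. *Dgat2* was 3.55-fold higher (1.83 ± 0.60, unadjusted p = 0.0111, edgeR adjusted p = 0.476), also without overlap, and *G0s2* 4.15-fold higher (2.05 ± 0.68, unadjusted p = 0.0110, edgeR adjusted p = 0.476), with 1 KPG1-PPARαΔ13 tumor among the KP-PPARαΔ13 values. edgeR called 0 of the 10 (0.0303% of all genes), as did DESeq2 (0.601%), and the 3 named had an unadjusted p under 0.05 (9.69% of all genes). Of the members, 1 was higher without overlap (10.3% of all genes) and 1 lower (7.25%). *Plin2*, *Plin3*, *Plin4* and *Plin5* differed by 0.31 (-0.21 to 0.83), -0.18 (-0.72 to 0.35), 0.70 (-0.42 to 1.83) and -0.02 (-1.14 to 1.11). *Cidec*, *Dgat1* and *Pnpla2* differed by -0.08 (-1.91 to 1.76), 0.04 (-0.45 to 0.53) and 0.31 (-0.34 to 0.96). Averaged over both diets, the difference of floxed *Slc2a1* was -0.54 ± 0.17 for *Hilpda*, 1.33 ± 0.47 for *G0s2* and 0.80 ± 0.42 for *Dgat2*, with an edgeR adjusted p of 0.976 for each. For that average edgeR called 0 members (0.0484% of all genes), and DESeq2 0 (0.17%), and 2 had an unadjusted p under 0.05 (4.53%).

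The wider pathway was followed in 5 lists of related genes. None of their genes passed the edgeR threshold in any of the 7 comparisons, so counts at an unadjusted p under 0.05 are given. In KP-PPARαΔ13 against KP, 5.32% of all genes were higher and 6.03% lower at that level, shares against which the list counts are to be read. Of 19 tested genes that supply triglyceride synthesis, 0 were higher and 4 lower. Among them were *Mogat1* (log2 fold change -5.45) and *Mogat2* (-1.76), which acylate monoacylglycerol, and *Soat1* (-1.06), which makes cholesterol esters. *Mogat1* was at 15.7, 1.64 and 0.766 CPM in KP and at 0.0685 to 0.234 CPM in KP-PPARαΔ13, so its size rested on 1 KP tumor and few reads. Of 17 genes of droplet assembly and surface, 2 were higher, *Hsd17b11*, a droplet enzyme (0.82), and *Vps13a*, a lipid transfer protein (0.98). Another 2 were lower, *Tmem159* (-0.97) among them. Of 14 genes of lipolysis and lipophagy, 2 were higher, *Angptl4*, a lipoprotein lipase inhibitor and PPAR target (1.55), and *Lipa*, the lysosomal lipase (1.24), and 0 lower. *Angptl4* was at 15.3, 5.12 and 30.3 CPM in KP and at 45.2 to 52.8 CPM in KP-PPARαΔ13.

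Of the 17 regulators and fatty acid uptake genes, 3 were higher, *Pparg* (0.64) and *Ppara* itself among them, and 3 lower, with *Mlxipl*, a carbohydrate-responsive transcription factor, at a log2 fold change of -4.04. *Mlxipl* was at 1.88, 18.7 and 2.54 CPM in KP and at 0.405 to 0.504 CPM in KP-PPARαΔ13 (-2.24 without KP replicate 2), with an edgeR adjusted p of 0.256 and a DESeq2 adjusted p of 0.000168. Of 16 hypoxia targets, 1 was higher (*Ddit4*, 0.60) and 0 lower at an unadjusted p under 0.05. The list's median was 0.35, with 12 of 16 above 0, beside 1.21 for *Hilpda*. Single targets ranged from -0.77 (*Ankrd37*) to 2.04 ± 1.04 (SE, *Car9*). A part of hypoxia in the *Hilpda* values was not tested.

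In KPG1-PPARαΔ13 against KPG1, 6.25% of all genes were higher and 4.5% lower at an unadjusted p under 0.05. Triglyceride synthesis had 0 of 19 genes higher and 0 lower at that level, *Gpam*, the mitochondrial glycerol phosphate acyltransferase, having the smallest p (-0.70). Droplet assembly had 1 of 17 higher and 3 lower, the latter *Vps13a* (-1.07), *Hsd17b11* (-0.84) and *Bscl2*, which codes for seipin (-0.73). *Hsd17b11* was at 137, 83.9 and 111 CPM in KP, at 220, 217 and 150 CPM in KP-PPARαΔ13, at 269, 195 and 137 CPM in KPG1 and at 122, 81.3 and 132 CPM in KPG1-PPARαΔ13. Its log2 fold changes had opposite signs in the 2 genotypes, as had those of *Vps13a*, and the difference between the effects was -1.66 for *Hsd17b11* and -2.05 for *Vps13a* (edgeR adjusted p = 0.330 for both, DESeq2 adjusted p = 0.0301 and 0.0231).

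Of the lipolysis genes in KPG1-PPARαΔ13 against KPG1, 2 of 14 were higher and 2 lower at an unadjusted p under 0.05. Over all genes, 6.25% were higher and 4.5% lower. *Lpl*, which frees fatty acids from lipoproteins, was at 2.37 and *Ces1d*, a carboxylesterase with triglyceride hydrolase activity, at -1.85. With sex as a covariate these were 1.5 and -0.61. *Lpl* was at 7.16, 3.65 and 15.1 CPM in KPG1 and at 78.1, 16.04 and 40.2 CPM in KPG1-PPARαΔ13. The difference between the effects in KPG1 and KP was 3.61 for *Lpl* and 5.02 for *Mlxipl* (edgeR adjusted p = 0.330 for both, DESeq2 adjusted p = 0.0176 and 0.00181). Of the regulators and uptake genes, 0 of 17 were higher and 2 lower, *Slc27a1*, a fatty acid transporter (-0.81), and *Cebpa* (-0.80). None of the 16 hypoxia targets was under an unadjusted p of 0.05, *Ankrd37* (-0.99) having the smallest p. Their median was -0.18, with 11 of 16 below 0, beside 0.95 for *Hilpda*. The direct test of the difference between genotypes gave a median of -0.53 for the hypoxia targets, with 14 of 16 below 0, beside -0.26 for *Hilpda* and 0.03 over all genes. Each of these comparisons uses the same 12 tumors, and those of 1 control group share its values.

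**Figure D4:**
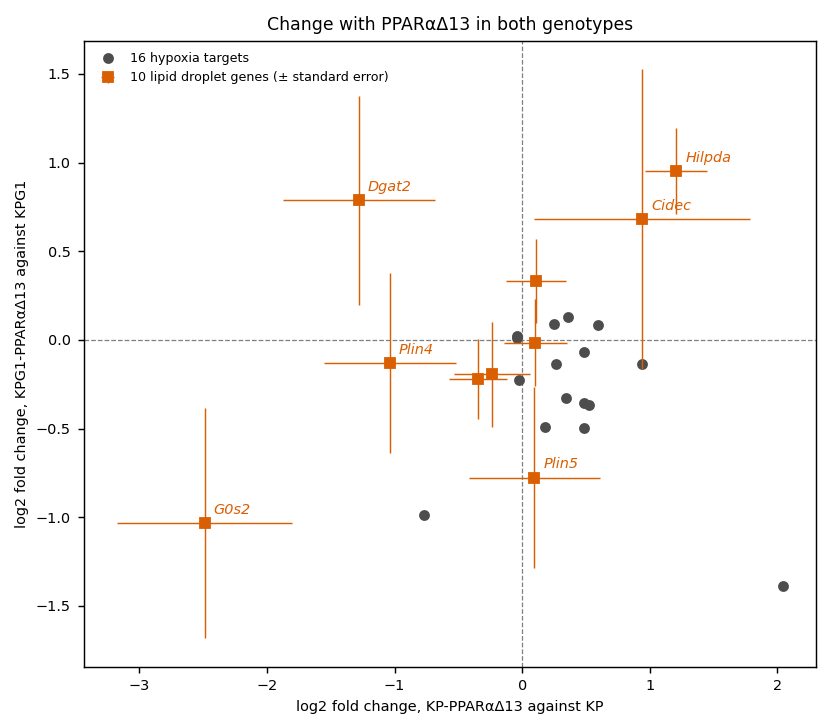
The log2 fold change with PPARαΔ13 in KP (horizontal axis) is set against that in KPG1 (vertical axis) for the 10 lipid droplet genes (squares, bars ± standard error) and the 16 hypoxia targets (circles). Hilpda lies at 1.21 and 0.95. The medians of the hypoxia targets were 0.35 and -0.18, and single targets ranged from -0.77 to 2.04 in KP and from -1.39 to 0.13 in KPG1. A part of hypoxia in the Hilpda values was not tested.

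Between genotypes on the regular diet, 2.42% of all genes were higher in KPG1 and 3.81% lower at an unadjusted p under 0.05. At that level 2 of 19 triglyceride synthesis genes were higher in KPG1 and 0 lower, *Gpam* (1.19) and *Acsl5* (1.13), an acyl-CoA synthetase. Of droplet assembly genes, 4 of 17 were higher and 1 lower. Among the higher were *Cideb*, a relative of *Cidec* (0.94), *Hsd17b11* (0.86) and *Vps13a* (0.99). None of 14 lipolysis genes was under that level, and of 17 regulators and uptake genes 1 was higher (*Vldlr*, a lipoprotein receptor, 1.28) and 1 lower (*Mlxipl*, -2.31, and -0.50 without KP replicate 2). Of hypoxia targets, 1 of 16 was higher (*Bnip3*, 0.65). Their median was 0.24, with 12 of 16 above 0, beside -0.41 for *Hilpda*. With doxycycline, where 5.25% of all genes were higher and 4.44% lower, triglyceride synthesis had 1 gene higher in KPG1-PPARαΔ13 than in KP-PPARαΔ13 (*Mogat2*, 2.49, edgeR adjusted p = 0.462, DESeq2 adjusted p = 0.00331) and 1 lower, and droplet assembly 1 higher and 3 lower. Lipolysis had 3 of 14 higher and 0 lower, with *Lpl* at 2.76 and *Abhd5*, the protein that activates the *Pnpla2* product, at 0.81. *Abhd5* was at 38.9, 25.3 and 52.6 CPM in KP-PPARαΔ13 and at 49.3, 81.1 and 74.2 CPM in KPG1-PPARαΔ13. Regulators had 1 higher (*Mlxipl*, 2.72) and 3 lower, and hypoxia targets 0 higher and 2 lower (*Vegfa*, -0.77, and *Car9*, -2.62). The median of the hypoxia targets was -0.24 here, with 13 of 16 below 0, beside -0.67 for *Hilpda*.

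Markers of the cell types that such a fraction could hold were measured beside these genes. Adipocyte markers were nearly absent, with *Lep* at 0 reads in all 12 tumors and *Adipoq*, *Retn*, *Plin1*, *Cfd*, *Adrb3* and *Thrsp* at no more than 0.904 CPM in any tumor. *Lipe*, the hormone-sensitive lipase and the 1 adipocyte marker kept by the filter, was at 13.5 to 56.5 CPM. Brown adipocyte markers summed to at most 1.03 CPM, with *Cox8b* at 0 reads. Lipofibroblast markers, of which the filter kept 3 of 5, summed to 46.2 to 97.3 CPM in KP and 49.4 to 64.9 CPM in KP-PPARαΔ13. Their sums were 44.7 to 113 CPM in KPG1 and 40.6 to 62.9 CPM in KPG1-PPARαΔ13. Alveolar type 2 markers were high in every tumor, summing to 23794 to 77168 CPM, and epithelial markers to 2323 to 6053 CPM.

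With PPARαΔ13, 7 of 8 alveolar type 2 markers were lower in KP and 8 of 8 in KPG1, the sums ranging from 27564 to 59216 CPM in KP, 23794 to 60280 CPM in KP-PPARαΔ13, 47924 to 77168 CPM in KPG1 and 25484 to 40636 CPM in KPG1-PPARαΔ13. Fibroblast markers were higher for 6 of 7 genes in KP-PPARαΔ13 than in KP, summing to 318 to 569 CPM against 127 to 283 CPM. They were lower for 6 of 7 in KPG1-PPARαΔ13 than in KPG1, although the sums overlapped (151 to 202 CPM against 98.3 to 384 CPM). Erythroid markers summed to 850 to 1320 CPM in KP-PPARαΔ13 against 319 to 765 CPM in KP, and to 731 to 1421 CPM in KPG1-PPARαΔ13 against 629 to 962 CPM in KPG1. Of these 5 markers edgeR called 1 in KPG1-PPARαΔ13 against KPG1, 1 in KPG1 against KP and 1 with PPARαΔ13 averaged over both genotypes. Over all 16527 genes it called 1, 6 and 3 there. In each of these comparisons 4 of the 5 markers had values above 0 and 1 below. Macrophage markers summed to 48.5 to 152 CPM in KP, 53.8 to 114 CPM in KP-PPARαΔ13, 32.6 to 41.5 CPM in KPG1 and 29.9 to 91.7 CPM in KPG1-PPARαΔ13, and *Ptprc*, the gene of CD45, reached 31.5 CPM in KP replicate 1 against a median of 5.34 CPM over all tumors. Without that tumor the log2 fold changes in KP-PPARαΔ13 against KP were 1.22 for *Hilpda* and -2.36 for *G0s2* (edgeR adjusted p = 0.237 and 0.314). Endothelial markers had fitted log2 fold changes above 0 for 6 of 6 genes in KP-PPARαΔ13 against KP, although the sums overlapped (89.5 to 545 CPM, median 157, against 122 to 285 CPM, median 279), and below 0 for 6 of 6 in KPG1-PPARαΔ13 against KPG1 (107 to 167 CPM against 108 to 321 CPM). Alveolar type 1 markers had values above 0 for 5 of 5 genes in KP-PPARαΔ13 against KP, again with overlapping sums (1416 to 2733 CPM, median 1631, against 177 to 2211 CPM, median 1886), and below 0 for 5 of 5 in KPG1-PPARαΔ13 against KPG1 (596 to 1026 CPM against 1669 to 2321 CPM). The part of these cell types in the values of the 10 genes was not tested.

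Tumors of 1 mouse show how far the genes vary within an animal. For the 3 pairs of tumors that share a mouse number and a group, *Hilpda* differed 1.17-fold in KP, 1.04-fold in KPG1 and 1.15-fold in KPG1-PPARαΔ13, and *Plin2* 1.26-fold, 1.25-fold and 1.08-fold. *Dgat2* differed 9.28-fold, 1.12-fold and 1.05-fold, *G0s2* 1.13-fold, 1.42-fold and 6.98-fold, and *Cidec* 2.09-fold, 2.08-fold and 2.29-fold. With the tumors of a mouse summed, the log2 fold change of *Hilpda* averaged over both genotypes was 1.12 and that of *G0s2* -1.77, with edgeR adjusted p of 0.326 and 0.412.

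The genes whose log2 CPM over the 12 tumors was most like that of each member are given as a description, since all points share libraries and groups and the best of 16527 genes will lie high in any case. For *Hilpda* they were *Actn1* (Pearson r = 0.90), an actin cross-linker, *Avil* (0.89), a relative of gelsolin, and *Gm3788* (0.89). For *G0s2* they were *Ak1* (0.95), an adenylate kinase, *4933415A04Rik* (0.90) and *Gm5815* (0.89). For *Plin2* they were *Stx7* (0.87), a syntaxin of late endosomes, *Prep* (0.86), a peptidase, and *Snx3* (0.85), a sorting nexin. For *Plin3* they were *Cdkn1a* (0.91), a cell cycle inhibitor, *Wwc2* (0.91) and *Vasn* (0.90), and for *Pnpla2* *Tmc4* (0.93), *2610034B18Rik* (0.92) and *Herc2* (0.90). For *Dgat1* they were *Pxmp2* (0.91), a peroxisomal membrane protein, *Kcnj13* (0.90) and *Gm12183* (0.87), and for *Dgat2* *Arhgap17* (0.93), *P2ry4* (0.93) and *Zmym3* (0.93). For *Plin4* they were *Fbxo3* (0.92), *Zxdc* (0.91) and *Zfp362* (0.89), for *Plin5* *Gm15884* (0.95), *5031425E22Rik* (0.90) and *Morn1* (0.89), and for *Cidec* *Dctn1* (0.88), *Alkbh3* (0.87) and *Nme2* (0.85). No member was among the 3 closest genes of another.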

How the data were processed

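RNA of 12 tumors was sequenced from a stranded mRNA kit as single-end reads. Per the labels, the authors' processing used bcl2fastq 2.17, cutadapt 1.4.2, HISAT2, featureCounts 1.4.4 and edgeR with mm10, and the authors deposited raw counts of reads per gene. The annotation and the strand setting are not given in the sources used here. The deposited log2 table was not used, and 0 columns of per-sample values matched no sample. The file of each of the 12 tumors equalled the combined table. GENCODE M21 gave exon lengths for TPM (96.4% of genes, 99.7% of counts).

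Tumors were grouped by their labels. edgeR 4.0.16 (R 4.3.3) fitted all 12 tumors at once, with TMM scaling, filterByExpr by group, the quasi-likelihood test, 8 residual degrees of freedom and Benjamini-Hochberg adjustment over 16527 genes at 0.05. The standard error is the log2 fold change over the square root of F. Nothing in the labels says that tumors of 1 mouse are independent, so p-values measure only the spread between these tumors. On simulated counts for KP-PPARαΔ13 against KP with 16527 genes, 2% of 2-fold, 44% of 4-fold and 72% of 8-fold changes were recovered. Log2 CPM used a prior count of 2. Alternatives were DESeq2 1.42.0, limma 3.58.1 voom, other scalings and filters, the compared groups alone, sex, a replicate block, summed mice and leaving out each tumor. The 10 genes were named whatever their values. Related genes were named by list, at most 3 per list and comparison with the smallest unadjusted p and a mean of at least 1 CPM. The members and lists were chosen with earlier results of these data known. *Lamb3*, *Hdgfl2* and *Slc2a1* were added as neighbours or as the targeted gene.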

Additional observations from a re-analysis of the deposited data

How the results depend on the processing

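edgeR called none of the 10 genes in any comparison, and of the alternatives only DESeq2 called any: 2 in KP-PPARαΔ13 against KP, 1 in KPG1-PPARαΔ13 against KPG1 and 2 averaged over both genotypes. Over all genes edgeR called 1, 1, 6, 5, 0, 3 and 8 and DESeq2 379, 175, 57, 152, 278, 287 and 43, in the order KP-PPARαΔ13 against KP, KPG1-PPARαΔ13 against KPG1, KPG1 against KP, KPG1-PPARαΔ13 against KP-PPARαΔ13, the difference of effects, PPARαΔ13 averaged and floxed *Slc2a1* averaged. The cause of this gap was not tested. Without 1 tumor at a time, the log2 fold change of *Hilpda* averaged over both genotypes stayed between 0.99 and 1.15 and that of *G0s2* between -1.92 and -1.44. A fit with the replicate number as a block (replicate block) called none of the 10, with *Hilpda* averaged at 1.09 and *G0s2* at -1.75. The numbers do not pair the tumors, since 2 of 18 same-numbered pairs had correlated deviations over 0.1 (-0.19 to 0.13) and 11 of 36 best matches were of the same number. A mean of at least 20 TPM leaves out *Dgat2*, *Cidec*, *Plin4* and *Plin5*. Small log2 fold changes changed sign. With sex as a covariate, *Plin5* was at -0.018 in KP-PPARαΔ13 against KP and 0.0025 between the doxycycline groups, *Cidec* at -0.016 in KPG1-PPARαΔ13 against KPG1, and *Hilpda* at 0.030, *Pnpla2* at -0.016 and *G0s2* at -0.20 in KPG1 against KP, where sex and genotype overlap. Upper-quartile scaling gave 0.0038 for *Plin3* in KPG1-PPARαΔ13 against KPG1 and 0.011 for *Plin5* between the doxycycline groups, and the 20 TPM filter gave 0.016 for *Plin3*. With tumors of a mouse summed, KPG1 against KP gave -0.0091 for *Plin2* and 0.10 for *Dgat1*, and the doxycycline groups gave 0.13 for *Plin5*. limma voom gave 0.23 for *Dgat2* and -0.027 for *Cidec* in KPG1 against KP and 0.18 for *Cidec* between the doxycycline groups. Leaving out 1 tumor gave ranges across 0. In KP-PPARαΔ13 against KP these were -0.076 to 0.40 for *Plin2*, -0.12 to 0.42 for *Plin3*, -0.17 to 0.40 for *Plin5* and -0.48 to 0.10 for *Pnpla2*. In KPG1-PPARαΔ13 against KPG1 they were -0.15 to 0.048 for *Plin3*, -0.47 to 0.12 for *Plin4* and -0.44 to 0.0054 for *Dgat1*. In KPG1 against KP they were -0.10 to 0.38 for *Plin2*, -0.29 to 0.25 for *Plin3*, -0.36 to 0.0036 for *Plin4*, -0.32 to 0.12 for *Dgat1*, -0.72 to 0.57 for *Dgat2*, -0.94 to 0.84 for *Cidec* and -0.044 to 0.93 for *G0s2*. Between the doxycycline groups they were -0.41 to 0.25 for *Plin5*, -0.020 to 0.083 for *Dgat1* and -0.63 to 0.36 for *Cidec*. *Plin4*, *Plin5*, *Cidec* and *G0s2* had as few as 8 to 23 reads in a tumor, which limits their values.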
